A study of Mus musculus with 20 samples.

Results

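RNA editing driven by an antibody against G3BP1 was compared with editing driven by rabbit IgG in sections of embryonic mouse brain at stage E16.5. The comparison used 4 of the 20 libraries of the series: 2 with a rabbit antibody against G3BP1 and 2 with rabbit IgG of no set target. All 4 came from wild-type C57BL/6J embryos whose sections were fixed with 0.2% formaldehyde, and all received the same fusion enzyme, rAPOBEC1-pAG-hADAR2, over a secondary antibody raised in guinea pig against rabbit IgG. IgG was the background, and no E16.5 library without antibody was among the samples analysed here. The labels do not say whether replicates came from separate embryos, so p-values speak only of the spread among 4 libraries, which may be technical.

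G3BP1 is an RNA-binding protein best known as the scaffold of stress granules, cytoplasmic assemblies of mRNA and protein that form when translation initiation is blocked. Its paralog G3BP2 and its partner CAPRIN1 take part in the same assemblies, and in neurons G3BP1 is also found in axonal granules that hold mRNA. In MAPIT-seq the antibody brings protein A/G, and with it 2 deaminases, close to the RNA bound by the target: APOBEC1 turns cytidine into uridine, read as a C-to-T change, and ADAR2 turns adenosine into inosine, read as an A-to-G change. The share of edited reads at a transcript was the readout, and the abundance of the transcript was measured in the same libraries as TPM, a level per transcript length scaled to the library total.

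After repeated lines were removed, 337325 sites had 10 or more reads in all 4 libraries and were kept. They held 36753147 and 61256916 reads in the anti-G3BP1 libraries (replicates 1 and 2), against 63989003 and 46945970 reads in the IgG libraries. Anti-G3BP1 replicate 1 was thus the shallowest library and IgG replicate 1 the deepest. Editing was sparse: the median gene had 7 edited reads in a library, and edited reads limit the precision of every value per gene. Transcripts of cortical neurons marked the tissue as labelled. Neurod2, a transcription factor of excitatory cortical neurons, had 375 and 339 TPM in anti-G3BP1 libraries and 366 and 397 TPM in IgG libraries. Neurod6 had 397 and 363 TPM with anti-G3BP1, against 327 and 331 TPM with IgG. Gfap, the intermediate filament of mature astrocytes, lay between 1.09 and 2.01 TPM in the 4 libraries.

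More reads were edited with anti-G3BP1 than with IgG. The edited share over all kept sites was 0.374% and 0.346% in anti-G3BP1 libraries, against 0.216% and 0.227% in IgG libraries. The groups did not overlap, and the fold of the means was 1.62, with single pairs of libraries between 1.52 and 1.73. The 95% Wilson interval of a library's share was 0.372% to 0.376% at its widest and covers counting error only, since PCR reads without molecular identifiers are not independent molecules. An exact two-sided permutation test gave p = 0.333, the smallest value that 2 against 2 libraries allow. Both kinds of change were higher, A-to-G by the larger fold. A-to-G changes took 0.562% and 0.523% of reads with anti-G3BP1, against 0.282% and 0.288% with IgG, a fold of 1.90. C-to-T changes took 0.272% and 0.25% with anti-G3BP1, against 0.181% and 0.194% with IgG, a fold of 1.39.

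The gain differed with the base before the edited site. At adenosines after thymine the A-to-G share was 0.851% and 0.808% with anti-G3BP1, against 0.367% and 0.371% with IgG, a fold of 2.25. The fold was also 2.25 after adenine, with 0.678% and 0.628% for anti-G3BP1 and 0.283% and 0.296% for IgG, and 1.78 after cytosine. At adenosines after guanine it was 0.395% and 0.380% with anti-G3BP1, against 0.294% and 0.297% with IgG, a fold of 1.31. For C-to-T changes the largest gain was at cytidines after adenine, with 0.419% and 0.388% for anti-G3BP1 and 0.219% and 0.238% for IgG, a fold of 1.77. The fold after thymine was 1.36, and those after cytosine and after guanine were 1.01 and 1.02, where the groups overlapped. Sites after adenine made up 52.1% of the C-to-T edited reads in anti-G3BP1 libraries and 40.7% in IgG libraries, while 33.7% of the kept C sites follow adenine. In the 20 bases around C-to-T edited reads the A and T content was 58.2% and 57.8% with anti-G3BP1, against 54.8% in each IgG library and 52.7% over all kept C sites.

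Along the transcript the gain was larger in 3′ UTRs than in coding sequence. The 3′ UTR share was 0.373% and 0.348% with anti-G3BP1, against 0.204% and 0.212% with IgG, a fold of 1.73. The coding share was 0.316% and 0.284% with anti-G3BP1, against 0.203% and 0.211% with IgG, a fold of 1.45. In 5′ UTRs the shares were 0.496% and 0.470% with anti-G3BP1 and 0.397% and 0.424% with IgG, a fold of 1.18, and for C-to-T changes alone they overlapped there. Over all kept sites the ratio of the 3′ UTR share to the coding share was 1.18 and 1.23 with anti-G3BP1, against 1.01 and 1.0 with IgG. Over these sites, which differ in their genes, the IgG libraries thus showed nearly equal editing of both regions. Since genes differ in which region is covered, the same 1966 genes with 500 or more reads in each region of every library were also compared. In them the fold was 1.71 in 3′ UTRs and 1.42 in coding sequence, and the ranges over pairs of libraries, 1.64 to 1.79 and 1.35 to 1.49, did not touch. Their 3′ UTR shares were 0.265% and 0.247% with anti-G3BP1, against 0.148% and 0.151% with IgG. Their coding shares were 0.260% and 0.241% with anti-G3BP1, against 0.174% and 0.178% with IgG. In these genes anti-G3BP1 thus edited both regions nearly equally, and IgG edited 3′ UTRs less than coding sequence. Within 3′ UTRs the fold was between 1.67 and 1.76 in every class of distance from the stop codon.

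**Figure D1:**
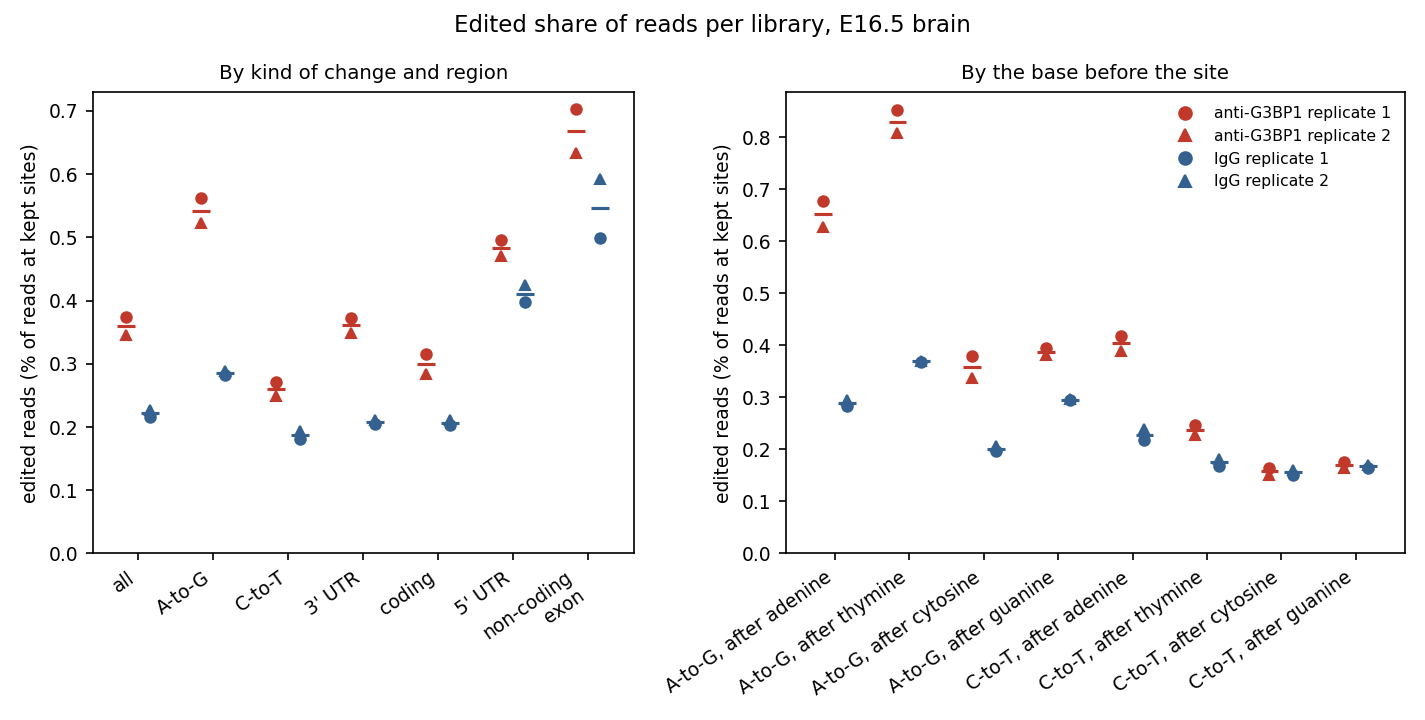
Edited share of reads (percent of reads at kept sites, linear axis from 0) in each of the 4 E16.5 libraries, by kind of change and transcript region (left) and by the base before the site (right); points are libraries and short lines the group means. Of the classes drawn, anti-G3BP1 lies above IgG in all except C-to-T changes after cytosine or guanine, and the gap is widest for A-to-G changes after adenine or thymine.

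Per gene, 11741 genes had 50 or more reads at kept sites in every library, and edited and unedited reads were compared in a quasi-binomial model with p-values adjusted by Benjamini-Hochberg over all of them. At an adjusted p under 0.05, 792 genes were higher with anti-G3BP1, which is 6.75% of genes tested, and 0 were lower. Of these, 787 had groups that did not overlap. At an unadjusted p under 0.05 the model gave 2113 genes higher and 16 lower. With edgeR's quasi-likelihood test 924 genes were called higher and 4 lower. The shift was broad: the median log2 odds ratio of all genes was 0.65, and 9118 genes, 77.7%, had a positive value. Both anti-G3BP1 shares lay above both IgG shares in 42.1% of genes, and below them in 5.4%. The count of calls rested on single libraries: leaving out anti-G3BP1 replicate 1 gave 148 genes, leaving out anti-G3BP1 replicate 2 gave 564, leaving out IgG replicate 1 gave 9 and leaving out IgG replicate 2 gave 157. With reads thinned to the shallowest library the count was 0 (1164 genes at an unadjusted p under 0.05), with dispersion moderated to 1 value 112, with A-to-G sites alone 510 and with C-to-T sites alone 16.

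**Figure D2:**
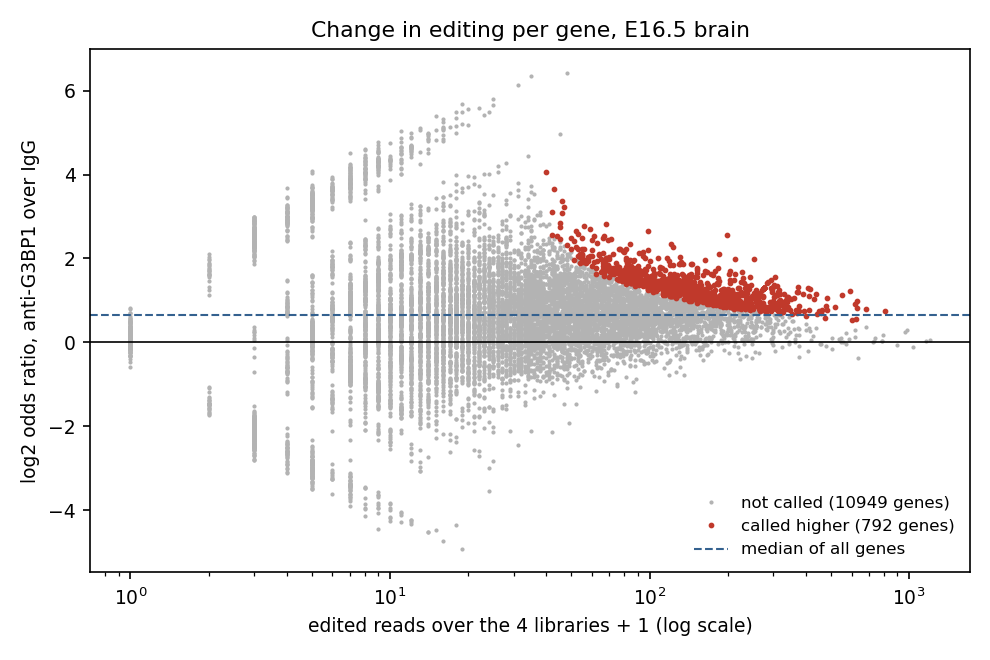
Log2 odds ratio of editing, anti-G3BP1 over IgG, for each of 11741 genes against its edited reads over the 4 libraries plus 1 (log axis); red points are the 792 called genes, the solid line is 0 and the dashed line the median of all genes. Most of the cloud lies above 0, around the median of 0.65, and the called genes are those with many edited reads.

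The genes with the smallest p-values are given first. Cct6a, which encodes a subunit of the chaperonin that folds actin and tubulin, had 0.681% and 0.980% of reads edited with anti-G3BP1, against 0.288% and 0.118% with IgG (log2 1.98 ± 0.30 SE, adjusted p = 2.89e-07 in the quasi-binomial model fitted across genes). The authors' expression table lists the gene as protein-coding, but its transcripts in GENCODE M21 are processed transcripts and retained introns, so its sites count as a non-coding exon here. Map1b, a microtubule-associated protein of growing axons, had 0.286% and 0.255% with anti-G3BP1, against 0.122% and 0.104% with IgG (log2 1.22 ± 0.19, adjusted p = 2.89e-07). Map1b lies on chromosome 13 (99421446 to 99516540, − strand). Its edited reads were spread over 142 of its 278 sites, and the site with most of them held 17.3%. Ankrd6, an ankyrin repeat protein of Wnt signalling, had 1.91% and 1.93% with anti-G3BP1, against 0.246% and 0.441% with IgG (log2 2.56 ± 0.40, adjusted p = 5.69e-07). The gene lies on chromosome 4 of mm10 (32804035 to 32950841, − strand), and 39 of its 40 kept sites are in the 3′ UTR. Edited reads fell on 29 Ankrd6 sites in anti-G3BP1 libraries and on 9 in IgG libraries. For Myo5a, the motor that carries cargo along actin, the shares were 0.533% and 0.480% with anti-G3BP1 and 0.17% and 0.0627% with IgG (log2 1.98 ± 0.31, adjusted p = 8.19e-07). Rtn4, the reticulon also called Nogo that inhibits neurite growth, had 0.506% and 0.679% with anti-G3BP1, against 0.295% and 0.261% with IgG (log2 1.13 ± 0.18, adjusted p = 2.37e-06). In each of these genes the groups did not overlap, and TPM was close between them: Map1b had 361 and 325 TPM with anti-G3BP1 and 336 and 330 TPM with IgG. The site with most edited reads held 35.5% of those of Cct6a, 34.5% for Rtn4, 26.3% for Ankrd6 and 10.8% for Myo5a.

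Tspyl1, of the nucleosome assembly protein family, was edited in 0.635% and 0.771% of reads with anti-G3BP1 and in 0.200% and 0.123% with IgG (log2 2.11 ± 0.35, adjusted p = 4.4e-06). Pafah1b2, a catalytic partner of the lissencephaly protein LIS1, had 0.456% and 0.454% with anti-G3BP1, against 0.179% and 0.185% with IgG (log2 1.33). Dner, a Notch ligand of neurons, had 0.417% and 0.479% with anti-G3BP1 and 0.214% and 0.190% with IgG (log2 1.16). Adnp, a chromatin protein linked to autism in humans, had 0.456% and 0.462% with anti-G3BP1, against 0.168% and 0.16% with IgG (log2 1.48), and shares its sites with the overlapping gene Gm20716, so their reads cannot be told apart. The 7 named genes Cct6a, Map1b, Myo5a, Rtn4, Tspyl1, Srsf1 and Caprin1 were still called without IgG replicate 1. Changes above these in size rested on few reads. Kbtbd11, a kelch and BTB domain protein, had the largest change of any called gene, log2 4.07 ± 1.38 (adjusted p = 0.0489 in the same model). It had 9 and 28 edited reads with anti-G3BP1, 0.391% and 0.701% of its reads, against 1 edited read in each IgG library, 0.0249% and 0.0334%. Plaa, which binds ubiquitin and phospholipase A2, had 43 and 41 edited reads with anti-G3BP1 and 7 in each IgG library (log2 2.66, adjusted p = 0.000232).

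At the level of single positions, 7439 sites with 8 or more edited reads over the 4 libraries were tested in the same model and 0 were called. At an unadjusted p under 0.05, 958 sites were higher with anti-G3BP1 and 14 lower, and the smallest adjusted p was 0.0519. Without anti-G3BP1 replicate 1, anti-G3BP1 replicate 2, IgG replicate 1 or IgG replicate 2 in turn, 65, 96, 4 and 24 sites were called, and 83 with the replicate number as a block. The sites below are positions in named genes, 1 per gene and kind of change, picked after their values were seen for the smallest unadjusted p, and show the bases around an edit. Each window is the mRNA strand of mm10, 5′ to 3′, from 10 bases before to 10 bases after the edited base, which is in capitals.
Tubb3, A-to-G, coding sequence, chr8:123421494-123421514, + strand: ttccggcgcaAggccttcctg
Cct6a, A-to-G, non-coding exon, chr5:129845975-129845995, + strand: tgccttgagtAtctgaagaca
Rtn4, A-to-G, 3′ UTR, chr11:29742444-29742464, + strand: atactactaaAgcagagtgga
Hsph1, A-to-G, coding sequence, chr5:149617513-149617533, − strand: ggctctgtcaAcatggacctg
Hnrnpu, A-to-G, 3′ UTR, chr1:178328728-178328748, − strand: aagattgagaAgatggagtgt
Eif4b, A-to-G, 3′ UTR, chr15:102096882-102096902, + strand: gacaatgagaAggtagtttgc
Dner, C-to-T, 3′ UTR, chr1:84370291-84370311, − strand: aaaaagaaaaCtagttaaatt
Kif21a, C-to-T, 3′ UTR, chr15:90933438-90933458, − strand: tatctgtctaCtcagaatatt
Nedd4, C-to-T, 3′ UTR, chr9:72749599-72749619, + strand: aattgcattaCaaaagcaaac

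At the Tubb3 site, 26 of 419 and 50 of 780 reads were edited with anti-G3BP1 (6.21% and 6.41%), against 11 of 723 and 4 of 569 reads with IgG (1.52% and 0.703%). At the Cct6a site the shares were 8.12% and 9.86% with anti-G3BP1 and 1.72% and 1.47% with IgG. Rtn4 had 12.8% and 14.2% with anti-G3BP1, against 6.30% and 5.16% with IgG, so the IgG background itself was high there. The Hsph1 site lies 16 bases before the last base of the stop codon. It had 20 and 26 edited reads with anti-G3BP1, against 2 in each IgG library. The C-to-T sites held few reads: 5 edited reads in each anti-G3BP1 library for Dner, against 1 and 0 with IgG.

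Gene groups are given below by the number of their tested members called and by their median log2 odds ratio, to be read against 6.75% and 0.65 over all genes. The groups named first have more edited reads per gene than the background, with medians of 71 to 206 against 28, and the call rate climbs with edited reads: 31.0% of protein-coding genes with 80 or more were called. No list was tested against other genes. Leaving out IgG replicate 1 left 0 or 1 called gene in each group. Stress granule and RNP granule proteins had 11 of 32 members called and a median of 0.81. Caprin1 itself, the partner of G3BP1, had 0.368% and 0.646% of reads edited with anti-G3BP1, against 0.257% and 0.171% with IgG (log2 1.27 ± 0.22, adjusted p = 6.59e-06 in the quasi-binomial model). Ddx3x, an RNA helicase of stress granules, had 0.328% and 0.353% with anti-G3BP1 and 0.125% and 0.132% with IgG (log2 1.41). Fmr1, the fragile X translational regulator, had 1.42% and 1.26% with anti-G3BP1 and 0.188% and 0.461% with IgG (log2 2.15). G3bp2 was called at log2 1.23, with 0.267% and 0.233% for anti-G3BP1 and 0.0594% and 0.168% for IgG. The mRNA of the antibody's own target, G3bp1, had 0.303% and 0.297% with anti-G3BP1, against 0.165% and 0.10% with IgG. The groups did not overlap, but the change of 1.11 ± 0.41 missed the threshold (adjusted p = 0.0808 in the quasi-binomial model). Its A-to-G shares alone overlapped, at 0.0614% and 0.550% with anti-G3BP1 and 0.121% and 0.217% with IgG. Its C-to-T shares were 0.360% and 0.237% with anti-G3BP1, against 0.175% and 0.0739% with IgG. G3bp1 had 123 and 120 TPM with anti-G3BP1 and 114 and 110 TPM with IgG.

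Of microtubule-associated proteins and stathmins, 14 of 32 were called, with a median of 0.71. Mapre2, which binds growing microtubule ends, had 0.346% and 0.355% with anti-G3BP1, against 0.150% and 0.135% with IgG (log2 1.29), and Clasp2, which stabilises those ends, was called at log2 1.34. Map2, of dendrites, was called at log2 0.82, with 0.328% and 0.346% for anti-G3BP1 and 0.213% and 0.163% for IgG. Of tubulins, 5 of 12 were called, Tuba1a, Tuba1b, Tubb3, Tubb4b and Tubb5, with a median of 0.87. Tuba1a and Tuba1b are near-identical paralogs, so how their reads were shared out is uncertain. Tubb3, the neuronal β-tubulin, had 0.206% and 0.238% with anti-G3BP1 and 0.0969% and 0.0948% with IgG (log2 1.24). Its gain was in A-to-G changes, at 0.455% and 0.470% with anti-G3BP1 against 0.118% and 0.107% with IgG. Its C-to-T shares overlapped, at 0.0384% and 0.0869% with anti-G3BP1 and 0.0829% and 0.0866% with IgG. Tuba1a likewise had 0.525% and 0.517% A-to-G with anti-G3BP1, against 0.219% and 0.182% with IgG, and 0.120% and 0.0739% C-to-T with anti-G3BP1, against 0.0872% and 0.125% with IgG. With C-to-T sites alone the log2 values of Tubb3, Tuba1a and Tuba1b were −0.28, −0.19 and −0.42, and the median of the tubulins was −0.15, so the direction of these 3 genes and of the median holds only for A-to-G changes. Tubb5 had 0.103% and 0.0847% C-to-T with anti-G3BP1, against 0.0824% and 0.0691% with IgG.

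Kinesin and dynein motors had 9 of 25 called, with a median of 0.82. Kif5c, a kinesin heavy chain of neurons, had 0.25% and 0.210% with anti-G3BP1 and 0.0958% and 0.101% with IgG (log2 1.20). Kif21a, a kinesin that restrains microtubule growth, had 0.425% and 0.454% with anti-G3BP1, against 0.203% and 0.0490% with IgG (log2 1.63), and gained in C-to-T changes as well, with 0.490% and 0.510% for anti-G3BP1 against 0.220% and 0.0538% for IgG. Pafah1b1, which encodes the dynein regulator LIS1, was called at log2 1.25. Spectrins, ankyrins and actin genes had 6 of 24 called, with a median of 0.79, led by Sptbn1, the β-spectrin of the membrane skeleton, with 0.229% and 0.266% for anti-G3BP1 and 0.0771% and 0.0787% for IgG (log2 1.69). Ank3, the ankyrin of the axon initial segment, and Nefl, the light neurofilament, were called at log2 0.94 and 1.44.

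Axon guidance and neural adhesion genes had 13 of 38 called, with a median of 0.76. The netrin receptor Dcc had 0.936% and 0.638% with anti-G3BP1 and 0.329% and 0.364% with IgG (log2 1.16). Cntn1, an adhesion molecule of axons, had 0.284% and 0.650% with anti-G3BP1 and 0.157% and 0.183% with IgG (log2 1.63), so its replicates were far apart. The slit receptor Robo2 and the adhesion molecule Ncam1 were called at log2 1.08 and 0.78. Synaptic genes had 7 of 38 called and a median of 0.56. Among them were the vesicle protein Sv2a, with 0.258% and 0.508% for anti-G3BP1 and 0.197% in each IgG library, and Syn1, which tethers synaptic vesicles, with 0.180% and 0.158% for anti-G3BP1 and 0.0511% and 0.0386% for IgG (log2 1.84).

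Of hnRNP and SR splicing factors 17 of 32 were called, the largest share of the lists in the model over all sites and libraries, with a median of 0.86. With A-to-G sites alone 11 of 32 were called, against 6 of 11 tubulins, and without anti-G3BP1 replicate 1 only 5 of 32, against 3 of 13 neuron markers. Srsf1, an SR protein that defines exons, had 0.323% and 0.308% with anti-G3BP1, against 0.148% and 0.101% with IgG (log2 1.28 ± 0.22, adjusted p = 5.08e-06 in the quasi-binomial model). Hnrnpu, which binds nascent RNA and chromatin, had 0.320% and 0.267% with anti-G3BP1 and 0.156% and 0.119% with IgG (log2 1.04). Khdrbs1, the splicing regulator Sam68, had 0.375% and 0.391% with anti-G3BP1, against 0.119% and 0.150% with IgG (log2 1.54). Neuronal RNA-binding regulators had 11 of 32 called and a median of 0.97, among them Elavl4 (log2 1.30), Celf4 (1.08) and Syncrip (1.13). Translation factors had 6 of 30 called, with a median of 0.81. Eif3a, the largest subunit of initiation factor eIF3, had 0.472% and 0.437% with anti-G3BP1 and 0.136% and 0.105% with IgG (log2 1.87). Chaperones had 10 of 29 called, with a median of 0.98. Hsph1, a nucleotide exchange factor of HSP70, had 0.551% and 0.416% with anti-G3BP1, against 0.135% and 0.113% with IgG (log2 1.87), and Hsp90ab1, the constitutive cytosolic HSP90, had 0.317% and 0.206% with anti-G3BP1 and 0.105% and 0.0839% with IgG (log2 1.37). Ubiquitin genes had 8 of 28 called, with a median of 0.97, among them the ligase Nedd4 (log2 1.21). Genes of the ER and secretory pathway had 7 of 28 called, with a median of 0.79, among them the chaperone Canx (1.01) and the coat protein Sec23a (1.27). Of genes known for natural A-to-I recoding, 3 of 25 were called, Gria4, Gabra3 and Cadps, with a median of 0.74.

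Developmental genes were called too. Neural progenitor and radial glia genes had 7 of 28 called, with a median of 0.99. Ptprz1, a receptor phosphatase of radial glia, had 0.463% and 0.457% with anti-G3BP1, against 0.216% and 0.25% with IgG (log2 0.99 ± 0.18, adjusted p = 1.69e-05 in the quasi-binomial model). Slc1a3, the glial glutamate transporter GLAST, had 0.344% and 0.404% with anti-G3BP1 and 0.0884% and 0.161% with IgG (log2 1.65). Cortical transcription factors had 7 of 28 called, with a median of 0.67. Sox11, of newborn neurons, had 0.238% and 0.220% with anti-G3BP1 and 0.135% and 0.136% with IgG (log2 0.75), and Tbr1, of deep-layer neurons, was called at log2 1.08. Long chromatin regulators had 9 of 28 called, with a median of 0.82, including Atrx (log2 1.35) and Chd5 (1.05). Imprinted growth genes had 7 of 22 called, with a median of 0.71. Among these, Cdkn1c, a cyclin-dependent kinase inhibitor, was called at log2 1.42 through its C-to-T changes. These took 0.351% and 0.251% with anti-G3BP1, against 0.0770% and 0.0496% with IgG, while its A-to-G shares overlapped, at 0.318% and 0.228% with anti-G3BP1 and 0.229% and 0.335% with IgG (log2 −0.049 with A-to-G sites alone).

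Other groups had no or few calls. Of 14 nuclear long non-coding RNAs, 0 were called in the quasi-binomial model, and 1 with limma on the empirical logit, and their median was 0.17 at a median of 85 edited reads. Their median stayed between 0.02 and 0.31 under the alternative settings, while that of all genes was 0.94 with A-to-G sites alone and 0.39 with C-to-T sites alone. Meg3, an imprinted RNA of the nucleus, had 0.135% and 0.131% with anti-G3BP1 and 0.109% and 0.105% with IgG; at 166 and 275 edited reads against 328 and 208, its change was 0.31 ± 0.14 (adjusted p = 0.207). In 4 of the 14 members both anti-G3BP1 shares lay above both IgG shares, against 42.1% of all genes. Mirg, from the same imprinted cluster as Meg3, had 0.651% and 0.345% with anti-G3BP1, against 0.218% and 0.102% with IgG (log2 1.42, adjusted p = 0.18 in the quasi-binomial model), and Rian had 0.184% and 0.209% with anti-G3BP1 and 0.110% and 0.166% with IgG (log2 0.58). Snhg11, Miat and Malat1, nuclear RNAs singled out after their values were seen, had log2 values of 0.01, 0.02 and −0.30. Snhg11 had 0.257% and 0.241% with anti-G3BP1 and 0.259% and 0.224% with IgG, Miat 0.154% and 0.109% with anti-G3BP1 and 0.124% and 0.127% with IgG, and Malat1 0.267% and 0.178% with anti-G3BP1 and 0.288% and 0.232% with IgG. In all 3 the groups overlapped. Genes of cytosolic ribosomal proteins had 0 of 81 called and a median of 0.39, with a median of 12 edited reads. Mitochondrially encoded mRNAs had 0 of 11 called and a median of 0.30, with 12 edited reads. That median was 0.12 with C-to-T sites alone, 0.14 without anti-G3BP1 replicate 1, 0.81 without IgG replicate 1, 0.82 without IgG replicate 2 and 1.13 with A-to-G sites alone. The median of the ribosomal protein genes lay between 0.065 and 0.61 over alternative settings.

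Markers of the other cell types of the sections had fewer edited reads. Neuron markers had 5 of 13 called, Tubb3, Map2, Stmn2, Gad1 and Gad2, and a median of 0.62, with Gad2, of inhibitory neurons, at 1.16% and 0.738% with anti-G3BP1 against 0.354% and 0.313% with IgG. Astroglial and oligodendroglial genes had 0 of 10 called and a median of 0.60, which was 0.066 without IgG replicate 1, 0.21 without anti-G3BP1 replicate 1, 1.30 without IgG replicate 2 and 1.45 with A-to-G sites alone. Endothelial and pericyte genes had 1 of 13 called, the VEGF receptor Kdr (log2 1.34), and a median of 0.44, between 0.20 and 0.51 over alternative settings. Meningeal and fibroblast genes had 1 of 7 called, the growth factor Igf2 (log2 1.08), and a median of 0.05 that ranged between −0.97 and 0.63 over alternative settings. Microglial genes had 0 of 5 called, with a median of 0.19 that ranged between −0.40 and 0.88 over alternative settings, and erythroid genes 0 of 4, with a median of 0.10 that was 0.46 without IgG replicate 1. These groups had between 7 and 29.5 edited reads in the median, apart from neuron markers with 195.

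**Figure D3:**
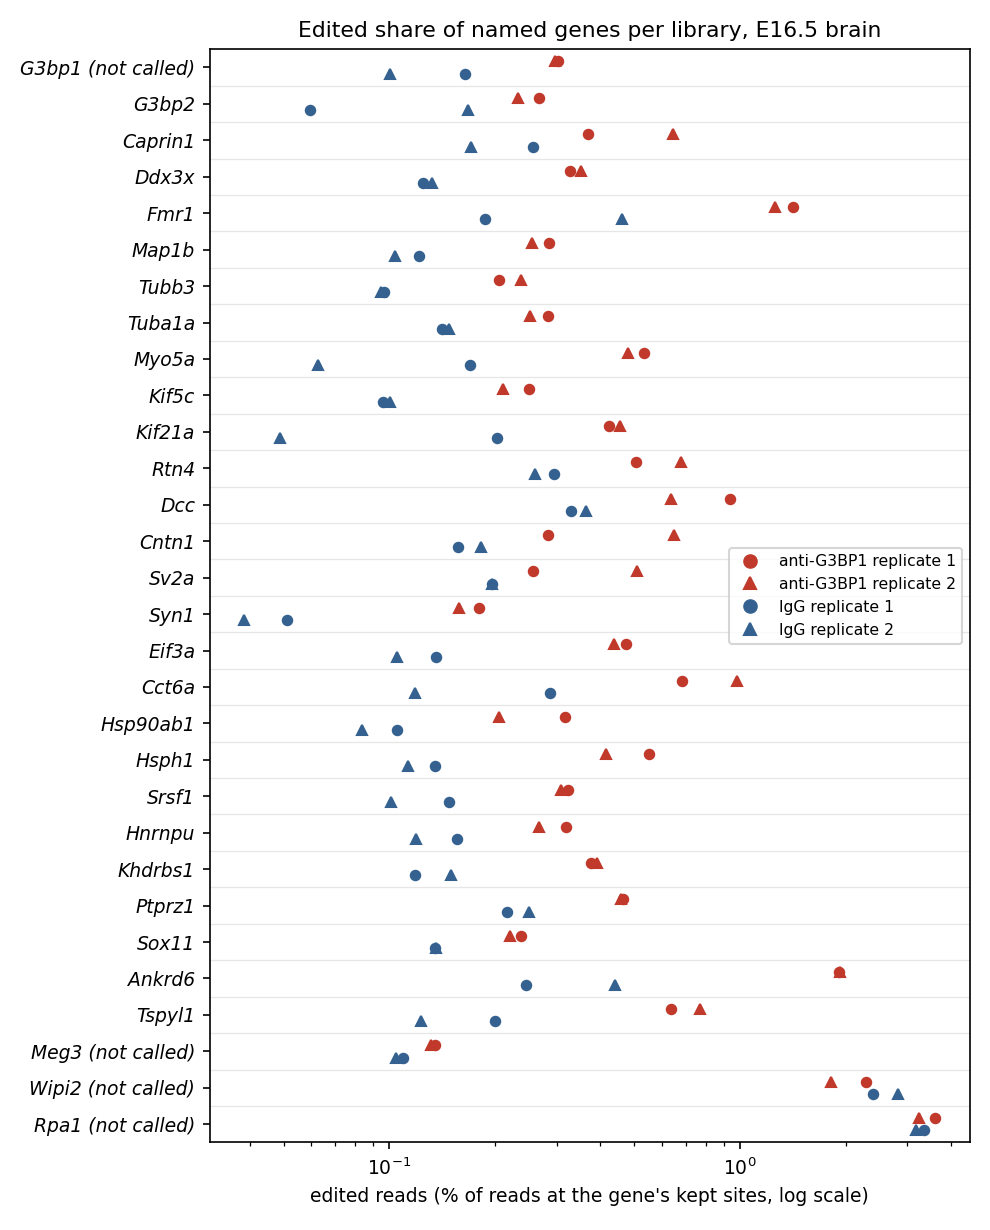
Edited share of 30 named genes in each of the 4 libraries (percent of reads at the gene's kept sites, log axis); red is anti-G3BP1 and blue IgG, circles are replicate 1 and triangles replicate 2. The groups are apart for every called gene drawn, while Meg3, Wipi2 and Rpa1 lie close together or overlap.

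**Figure D4:**
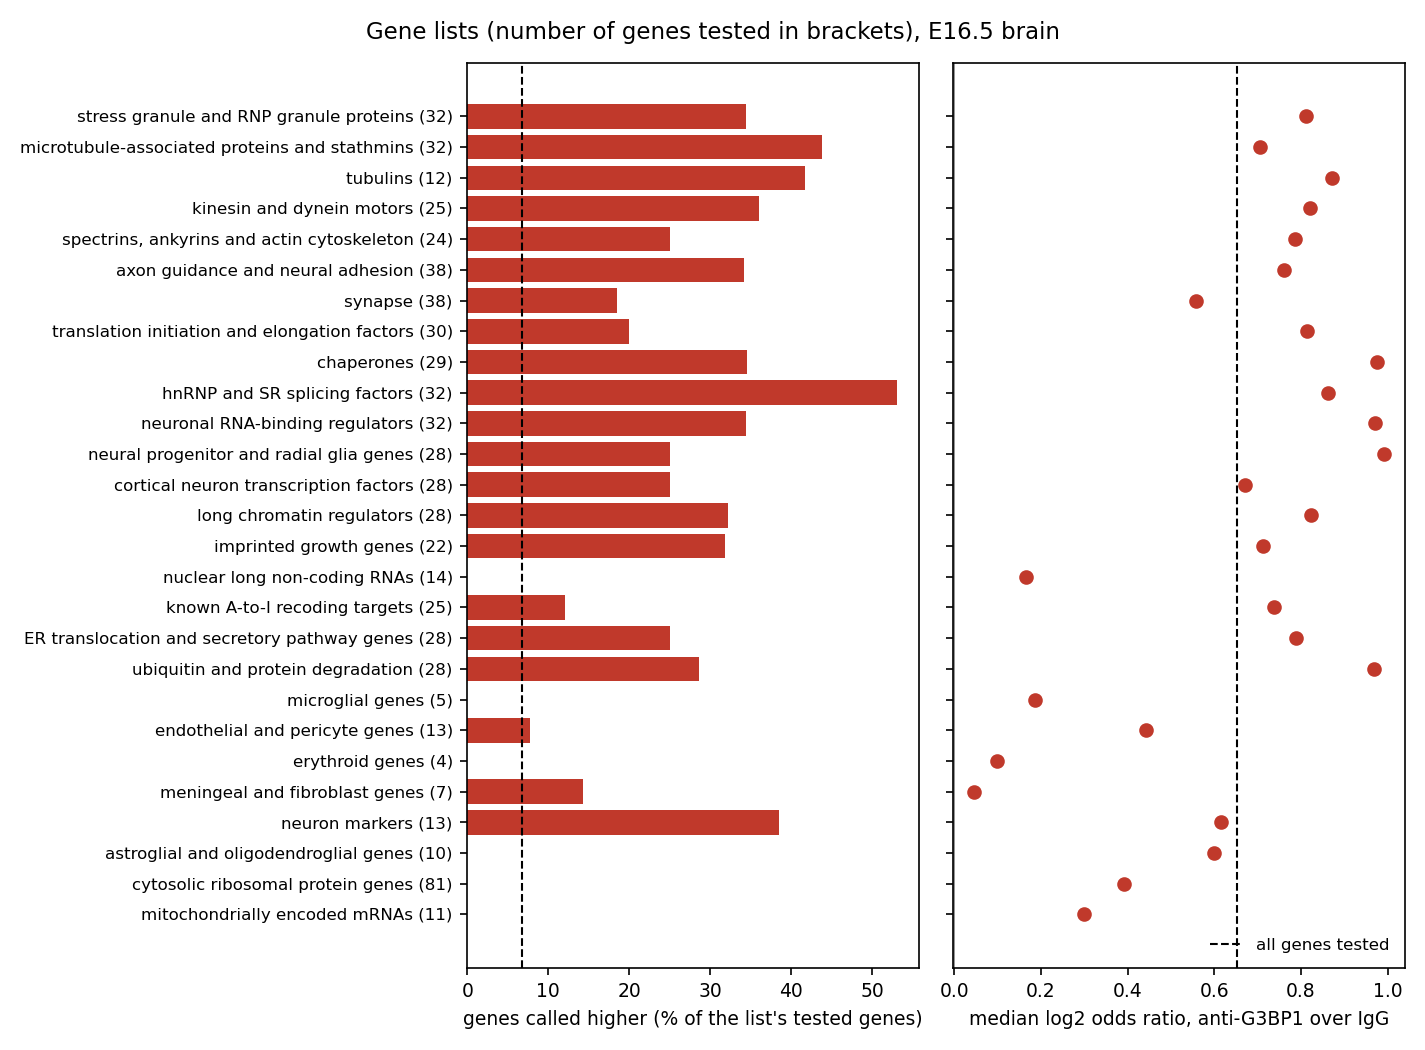
Share of tested genes called higher (left, percent) and median log2 odds ratio (right) for 27 gene lists; dashed lines mark all genes tested, at 6.75% and 0.65. Splicing factors have the highest share of calls, 17 of 32, and nuclear long non-coding RNAs lie left of the dashed line in both panels.

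Since most genes gained, the same model was also run against the median change, to ask which genes departed from the common shift. Then 3 genes were higher, 0.0256% of genes tested: Ankrd6 (adjusted p = 0.00639), Cct6a (0.0155) and Myo5a (0.0344). Another 5 were lower, 0.0426%, and in these anti-G3BP1 and IgG differed little. Wipi2, a PI3P-binding autophagy protein, had 2.29% and 1.82% with anti-G3BP1, against 2.39% and 2.82% with IgG (log2 −0.36 against no change; adjusted p = 5.3e-05 against the median). Rpa1, the large subunit of the single-strand DNA binding complex, had 3.60% and 3.24% with anti-G3BP1 and 3.36% and 3.19% with IgG (log2 0.05). Dnase2a, the lysosomal DNase, had 0.175% and 0.151% with anti-G3BP1, against 0.197% and 0.214% with IgG (log2 −0.36). Of the 136 kept sites of Dnase2a, 135 lie in a non-coding exon, so its value says little about the coding mRNA. Gm8566, listed as a processed pseudogene, had 17.7% and 15.2% with anti-G3BP1 and 16.8% and 16.9% with IgG. Gm29650, listed as a long non-coding RNA of chromosome Y, had 7.28% and 7.25% with anti-G3BP1 and 7.46% and 8.22% with IgG. The site with most edited reads held 59.5% of those of Gm8566, 43.3% of those of Rpa1 and 40.5% of those of Wipi2, so these values rest largely on a few positions. That share was 25.9% for Gm29650 and 3.99% for Dnase2a. Among genes that gained it varied too, with 54.3% for Gad2, 44.5% for Sv2a, 38.5% for Hsph1, 10.8% for Myo5a and 4.82% for Caprin1. Leaving out anti-G3BP1 replicate 1 gave 0 genes and leaving out anti-G3BP1 replicate 2 gave 1, which was higher. Leaving out IgG replicate 1 gave 5 and leaving out IgG replicate 2 gave 3, and all of these, like the 20 with A-to-G sites alone, were lower, so the calls of Ankrd6, Cct6a and Myo5a were lost there.

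Calls were more common among long and abundant transcripts. Protein-coding genes were put in 5 bins of equal size. By 3′ UTR length the share called was 1.16%, 4.74%, 8.27%, 10.7% and 11.7% from shortest to longest, and the median log2 odds ratio was 0.44, 0.70, 0.71, 0.73 and 0.76. The step in the change itself thus lay between the shortest bin, of up to 434 bases, and the rest. By mean TPM the share called was 1.80% in the lowest bin and 15.9% in the highest, but the median change was 0.74 in the lowest and 0.64 in the highest, so abundance went with calls and not with a larger change. By edited reads, a measure of the power of the test, the share called was 0% in each of the lowest 2 bins and 31.0% in the highest. Called genes had a median of 138 edited reads, against 27 in the others, and a median 3′ UTR of 2125 bases, against 1215. The parts of length and edited reads in the calls were not tested.

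**Figure D5:**
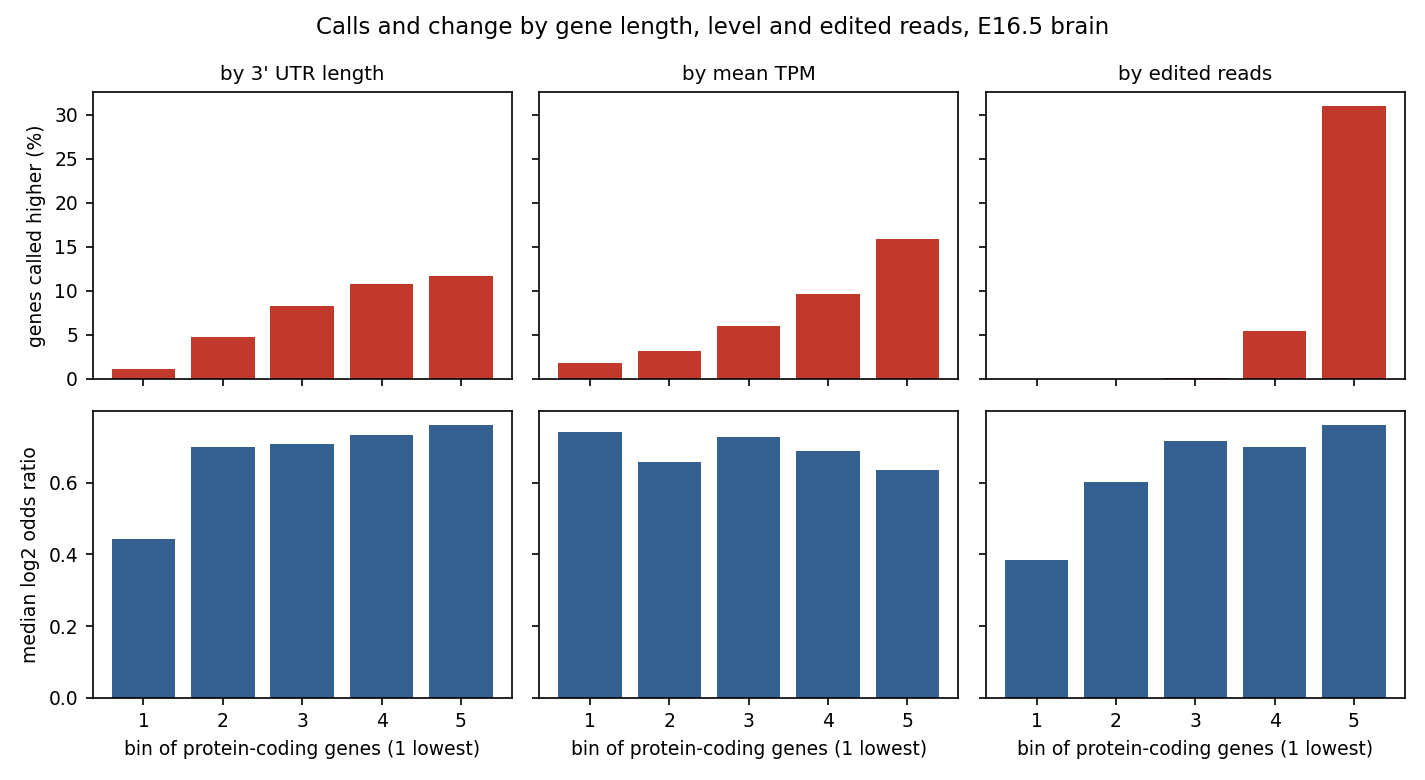
Share of genes called higher (top row, percent) and median log2 odds ratio (bottom row) in 5 bins of equal size of protein-coding genes, by 3′ UTR length, mean TPM and edited reads; bin 1 is the lowest. The share called climbs in all 3 columns, reaching 31.0% by edited reads, while the median change is lowest in the bin with the shortest 3′ UTRs and in the bin with fewest edited reads.

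Few genes were called for a difference in transcript abundance between the antibodies. On log2(TPM + 1), limma called 2 of 18564 genes, 0.0108%, at an adjusted p under 0.05, and 1841 genes had an unadjusted p under 0.05. In simulated data this test called 62 of 100 genes changed by log2 1, all 100 changed by log2 2, and 11 unchanged genes. The few calls thus do not show that abundance was equal. Sfrp2, a secreted Wnt modulator of progenitors, had 161 and 191 TPM with anti-G3BP1, against 49.0 and 49.1 TPM with IgG (log2 1.82, adjusted p = 0.00782 in limma). Its antisense neighbour Gm26771 had 95.9 and 108 TPM with anti-G3BP1 and 30.2 and 36.4 TPM with IgG (log2 1.59, adjusted p = 0.0302). The genes overlap by 464 bases on chromosome 3, and whether counting used strand is not given in the sources used here. Reads in that stretch thus cannot be told apart, and their part in both values was not tested. Both calls were lost without either IgG replicate, and 1 and 3 genes were called without anti-G3BP1 replicate 1 and replicate 2. Called genes had a median TPM change of 0.02 on the log2 scale, against −0.02 in genes not called for editing.

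Some lists were nevertheless sorted by antibody in TPM, in small steps and with no member called. Both anti-G3BP1 values lay above both IgG values for 22 of 28 progenitor genes and for 0 the reverse held, against 17.8% above and 23.6% below over all genes. The summed TPM of the progenitor list was 5047 and 4835 with anti-G3BP1, against 4024 and 4000 with IgG. Fabp7, the lipid-binding protein of radial glia, had 1458 and 1407 TPM with anti-G3BP1 and 1107 and 1064 TPM with IgG, and Vim, the intermediate filament of radial glia, had 277 and 259 TPM with anti-G3BP1, against 220 and 222 TPM with IgG. Above were also 18 of 28 cortical transcription factors, 15 of 30 translation factors and 13 of 30 chaperones. By contrast, 20 of 38 synaptic genes, 21 of 40 axon guidance genes, 8 of 15 nuclear long non-coding RNAs and 8 of 10 meningeal genes were below, and Meg3 had 726 and 707 TPM with anti-G3BP1, against 1009 and 906 TPM with IgG. Ptgds, a prostaglandin synthase of the meninges, had 156 and 162 TPM with anti-G3BP1 and 241 and 243 TPM with IgG (adjusted p = 0.129 in limma). Ttr, of choroid plexus, had 2.43 and 2.81 TPM with anti-G3BP1, against 7.55 and 9.06 TPM with IgG (adjusted p = 0.284). The summed TPM of meningeal genes was 299 and 304 with anti-G3BP1 and 408 and 407 with IgG, that of microglial genes 137 and 145 with anti-G3BP1 and 171 and 167 with IgG, and that of erythroid genes 1554 and 1631 with anti-G3BP1 and 1538 and 1620 with IgG. No member of these lists was at 0 TPM in all libraries. In bulk sections, fewer cells of a type and less RNA per cell cannot be told apart, and the part of such differences in the edited shares was not tested.

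The same antibodies were used on E12.5 brain and on a table labelled as fresh-frozen E10.5 embryo, each with its own IgG libraries. The second table goes against its label: Gria2, the AMPA receptor subunit of maturing neurons, averaged 87.2 ± 11.6 TPM in E16.5 brain, against 370 ± 59.6 TPM in that table (SD, n = 4 libraries each), where Afp, of yolk sac and fetal liver, averaged 0.255 TPM. At sites shared with E12.5 brain, the share at E16.5 was 0.516% and 0.50% with anti-G3BP1 and 0.262% and 0.274% with IgG, a fold of 1.89. At the same sites of E12.5 brain it was 0.850% and 0.713% with anti-G3BP1, against 0.336% and 0.381% with IgG, a fold of 2.18. Per gene the order was the other way, with a median log2 odds ratio of 0.99 at E16.5 and 0.73 at E12.5. This order was not stable: the median difference was 0.22, but −0.017 over all kept sites of each table. With each library left out in turn it lay between −0.0032 (without E12.5 IgG replicate 1) and 0.67 (without E12.5 anti-G3BP1 replicate 1). E12.5 IgG replicate 1 had 651130 reads at the shared sites, the fewest of all libraries compared there. At sites shared with the table labelled fresh-frozen, E16.5 brain had 1.03% and 0.983% with anti-G3BP1 and 0.459% and 0.466% with IgG, a fold of 2.17, while that table had 2.29% and 2.41% with anti-G3BP1, against 0.745% and 0.870% with IgG, a fold of 2.91. There the median per gene was 1.19 at E16.5 and 1.59 in the other table. The interaction of antibody and table was called for 0 of 2804 genes against E12.5 brain and for 0 of 3910 genes against the other table. At an unadjusted p under 0.05 there were 70 genes against E12.5 brain, 60 of them higher at E16.5, and 120 against the other table, 37 of them higher at E16.5. With median SEs of 1.88 and 1.81 on the log2 scale the test could show only large differences. In simulated data it called 0 of 100 genes that differed by log2 1, in either comparison. Of 100 genes that differed by log2 2 it called 3 against E12.5 brain and 8 against the other table. The absence of calls thus does not show that the tables are alike.

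The genes called at E16.5 were then looked up in the other tables, as a description. Of 531 called genes that could be tested at E12.5, 405 had a positive change there, 76.3%, against 62.9% of genes not called at E16.5. Both E12.5 anti-G3BP1 shares lay above both IgG shares in 36.9% of the called genes, against 24.9% of the others. In the table labelled fresh-frozen, 663 of 701 called genes were positive, 94.6%, against 82.4% of genes not called. Called genes also had more edited reads, and the part of this in the shares was not tested. For Cct6a the log2 odds ratio at shared sites was 2.32 at E16.5 and 2.34 at E12.5, a difference of −0.02 ± 0.97, and it was 2.37 at E16.5 and 2.47 in the table labelled fresh-frozen, a difference of −0.10 ± 0.62. Rtn4 had 1.27 at E16.5 against 2.70 in the table labelled fresh-frozen, a difference of −1.43 ± 0.56 that was not called (adjusted p = 0.952 in the interaction model).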

How the data were processed

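Poly(A) RNA of 4 MAPIT-seq libraries of E16.5 mouse brain sections (2 anti-G3BP1, 2 rabbit IgG) was read from the deposited E16.5 tables. Per the labels' protocols, TRIzol was used for extraction and VAHTS Universal V6 for the libraries. The authors deposited 2 count values per site and library, total reads and edited reads, per the file headers, and TPM per gene in a separate table. The submitters' processing notes name featureCounts 2.0.1, Subread, the aligners HISAT2 2.2.1 and BWA 0.7.17, GATK 4.5.0.0 and Picard 3.1.1, and the builds GRCm38 and mm10. How sites were called is not given in the sources used here. A value of 1 edited read was rarer than 2 in every library (22726 against 36019 lines in anti-G3BP1 replicate 1); the part of this in the shares was not tested.

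Of 384259 lines, 215 were repeats; the 384044 others, of which some list the same site under several genes, held 375414 sites, and of these 337325 had 10 or more reads in all 4 libraries (139076 of them with no edited read). Region and sequence came from GENCODE M21 transcripts. Reads were summed per gene, a site listed under several genes counting in each. Genes with 50 or more reads in every library entered a quasi-binomial model in R 4.3.3 (0.25 edited and 0.25 unedited reads added, Pearson dispersion moderated along a trend by squeezeVar of limma 3.58.1 and kept at 1 or more). Each change is a log2 odds ratio, with anti-G3BP1 on top. Sites and the interaction between tables used the same model, and TPM was tested with limma on log2(TPM + 1), which understates changes of low genes, after a filter of 1 TPM in at least 2 libraries. All p-values are two-sided, adjusted by Benjamini-Hochberg over all features tested. In simulated E16.5 data the gene model called 15 of 100 genes changed by log2 1 and 52 of 100 changed by log2 2, and 0 unchanged genes. The simulation gave every gene the same dispersion and unchanged genes no shift, so it does not give the error rate of the real calls. The alternatives included edgeR 4.0.16. Where a library was left out, the lone library of its group was assumed to vary like the others.

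Members and gene lists were chosen with earlier results of these data known. Named genes are those with the smallest p, the largest change, calls against the median, up to 4 members of each list with the smallest p, and G3bp1, G3bp2 and Caprin1; a selection is printed. Some sites are not reported here.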

Additional observations from a re-analysis of the deposited data

How the results depend on the processing

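The edited share stayed higher with anti-G3BP1 under all alternatives, with folds of 1.90 for A-to-G sites, 1.39 for C-to-T sites, and 1.56 to 1.69 when each library was left out. The count of 792 genes was 510 with A-to-G sites alone, 16 with C-to-T sites alone, 3 higher against the median change, 0 with reads thinned to the shallowest library and 112 with dispersion moderated to 1 value (both chosen after seeing the data), and 9 to 564 leaving out each library. The 8 genes called against the median were 18 with no depth minimum, 20 with A-to-G sites, 0 with C-to-T sites, 3 without sites edited in 50% or more of reads, 19 without sites lacking edited reads, 4 without the 100 sites with most edited reads, 23 at 200 reads per gene, 22 with the replicate block, 0 thinned, and 0 to 5 leaving out each library. Sites called were 56 at 4 or more edited reads, 83 with the block, and 4 to 96 leaving out each library. The 2 genes called in TPM were 1 without a filter and 0 to 3 leaving out each library. Against the table labelled fresh-frozen 3 genes were called over all kept sites, whose site sets differ. Values reversed for Cdkn1c with A-to-G sites alone (−0.049) and for Tuba1b (−0.42), Tubb3 (−0.28) and Tuba1a (−0.19) with C-to-T sites alone; the cause was not tested. Replicate numbers did not pair the libraries (correlations of deviations −0.03 to 0.02), and with a block 712 genes were called higher and 1 lower. Of 93 printed called genes, edgeR and limma on the empirical logit kept all. With dispersion moderated to 1 value 52 of them lost their call, and with reads thinned to the shallowest library all 93 did. Few edited reads limit values per gene and site.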
